A study of Homo sapiens with 9 samples.

Results

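JPX-0750 was set directly against JPX-0700 in MV4-11, an established cell line from a human acute myeloid leukaemia that carries an MLL fusion and a mutant FLT3 receptor. Of the 9 libraries in the series, 6 entered this comparison: 3 from cells given JPX-0700 for 24 h and 3 from cells given JPX-0750 for 24 h. They were chosen by their labels alone, and all genes with a mean of at least 5 normalised counts over these 6 libraries were tested, which kept 12643 of 26929. The 3 libraries from cells given the vehicle DMSO for 24 h served only as the background level. In the series title both compounds go under the name of dual-specific degraders of STAT3 and STAT5. The dose of neither compound is in the labels, so whether the doses were matched is not known here, and every difference below is between these treated groups at unstated doses. The labels number the libraries of each group 1 to 3 without saying that they came from separate cultures, so p-values measure the spread between these libraries only. A single cell line was used, and RNA was read from the 3′ end of polyadenylated transcripts.

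STAT3, STAT5A and STAT5B carry signals from cytokine and growth factor receptors to the nucleus: Janus kinases or receptor kinases such as FLT3 phosphorylate them, they pair, and they switch on target genes. A degrader removes a protein rather than blocking it, so the transcript of its target need not move. In leukaemia cells, compounds can also act on stress and growth programmes such as the heat shock response and passage through mitosis, so those lists are described beside the STAT pathway. The question the design allows is which transcripts separate the compounds from each other.

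The libraries differed among themselves before any compound was considered. Reads on genes ran from 726043 to 1941860 per treated library. Library 3 of each compound detected 10027 (JPX-0700) and 10407 (JPX-0750) genes, against 13647 to 14616 in libraries 1 and 2. Across the tested genes, log2 values of libraries 1 and 2 correlated at 0.838 within JPX-0700 and at 0.884 within JPX-0750, and at 0.825 to 0.878 between the compounds. Library 3 correlated with its own group at 0.619 and 0.633 (JPX-0700) and at 0.691 and 0.694 (JPX-0750), and the library 3 of each compound correlated with the other at 0.591. Libraries 1 and 2 of the 2 compounds therefore resembled each other more than either resembled library 3 of its own group, and list counts that rest on all 3 libraries are given below with and without library 3. The myeloid genes FLT3, CD33, LYZ, SPI1 and MEIS1 were read in all 9 libraries, whereas CD14, ELANE, MPO, CD34 and HOXA9 were listed at 0 or near it in the 6 treated ones. Of the markers of other cells, PPBP and EPCAM were at 0 in all 9 libraries and CD3E, MS4A1, CD79A and HBA1 had at most 13.6 normalised counts in any treated library. CD3D reached 50.02 in library 3 of JPX-0700 alone and COL1A1 108 in library 3 of JPX-0750.

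No gene met the threshold. With limma on log2(normalised count + 1), 0 of 12643 genes were higher (0%) and 0 were lower (0%) with JPX-0750 at a Benjamini-Hochberg adjusted p under 0.05. The smallest adjusted p was 0.999. At an unadjusted p under 0.05 there were 199 genes, or 1.57% of those tested. By voom on the recovered reads the adjusted count was also 0, and 500 genes (3.95%) had an unadjusted p under 0.05. Neither share exceeded what a threshold of 0.05 passes on average when no gene differs. The differences named below are therefore descriptions of these libraries, with the interval each allows, and none of them passed the test.

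A p that misses the threshold does not show that the compounds act alike, and the intervals of most genes were wide. For the 5286 genes with a mean of 5 to 50 normalised counts, the median 95% interval reached 3.77 log2 units to each side of the difference, which is 13.6-fold. It reached 4.03-fold for 6285 genes at 50 to 500, 2.09-fold for 988 genes at 500 to 5000, and 2.03-fold for 84 genes above that. The whole interval lay within 2-fold either way for 36 genes (0.285%), and for 113 with the library number as a block. All 36 had a mean of at least 500. The 5 narrowest intervals belonged to OAZ1, BAZ2B, RPL7, EIF5B and SRSF11. SRSF11, a splicing factor, had 2336, 2188 and 2804 normalised counts with JPX-0700 against 2451, 2342 and 3189 with JPX-0750, a log2 difference of 0.12 (95% interval -0.74 to 0.98). RPL7, a ribosomal protein, had a difference of -0.07 (95% interval -0.93 to 0.79). For OAZ1, the antizyme that restrains polyamine synthesis, all JPX-0750 libraries lay below all JPX-0700 libraries, at 3858, 4097 and 3903 against 4539, 4692 and 5236, with a difference of -0.28 (95% interval -1.12 to 0.55).

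**Figure D1:**
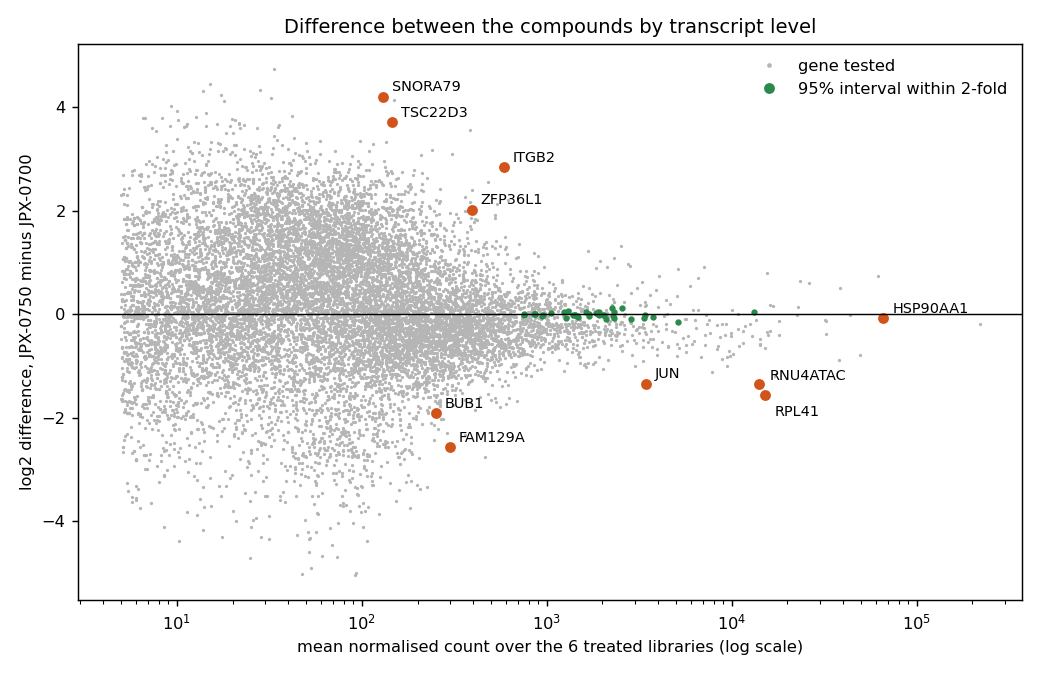
Each point is 1 of the 12643 tested genes, with its mean normalised count over the 6 treated libraries on a log axis and its log2 difference, JPX-0750 minus JPX-0700, on the y axis. Green points are the 36 genes whose 95% interval lies within 2-fold, all to the right of 500 normalised counts, and orange points are named genes, among them ITGB2 at 2.84 and RPL41 at -1.55.

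Each library set was also read without a model. All 3 JPX-0750 libraries lay above all 3 JPX-0700 libraries for 586 genes (4.63% of those tested) and below them for 458 (3.62%). With libraries 1 and 2 alone, both JPX-0750 libraries lay above both JPX-0700 libraries for 2225 genes (17.6%) and below them for 1982 (15.7%). Counts for gene lists below are to be read against these shares, and a pair of counts gives the members above first and those below second. Within library numbers 1, 2 and 3, 52%, 50.7% and 44.9% of all tested genes were higher with JPX-0750. In the same order 46.9%, 48.2% and 43% were lower, and counts within a library number are to be read against these. The median difference of all tested genes was 0.09 on the log2 scale. It became 0.23 when each library was scaled to its total instead of by the deposited factors, so a small difference in 1 direction depends on the scaling.

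Among genes with a higher mean under JPX-0750, ITGB2 had the smallest p. It encodes the beta-2 integrin chain, which pairs with alpha chains to form the adhesion receptors of leukocytes. ITGB2 (chr21:44885953-44928815) had 217, 447 and 19.5 normalised counts with JPX-0700, 582, 1009.5 and 1244 with JPX-0750 and 3039.6, 1755 and 571 with DMSO. The JPX-0750 libraries were all above the JPX-0700 libraries, and library 3 of JPX-0700 was the lowest of the 9. The log2 difference was 2.84 (95% interval 1.05 to 4.63), with an unadjusted limma p of 0.00367 and an adjusted p of 0.999. ITGAM, which encodes an alpha chain partner, was close to the detection limit, at 4.61, 33.5 and 0 and 20.5, 18.2 and 0. RefSeq lists the antisense gene ITGB2-AS1 over ITGB2, and the sources used here do not give the strand that was counted.

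ZFP36L1, an RNA-binding protein that hastens decay of AU-rich mRNAs, stood at 318, 224 and 38.9 with JPX-0700 against 749.7, 423 and 598 with JPX-0750, a difference of 2.02 (95% interval 0.50 to 3.54). Its DMSO libraries held 169.7, 90.5 and 75.9, so libraries 1 and 2 of each compound were above them. TSC22D3 encodes GILZ, a glucocorticoid-induced leucine zipper protein. Its levels were 55.3, 104 and 0 and 212, 223 and 277, and library 3 of JPX-0700 had no read. The highest JPX-0700 value was 104 and the lowest JPX-0750 value 212. PAGR1, a partner of histone methyltransferase complexes, had 55.3, 209 and 33.3 against 243, 286 and 399.8, and KIAA0355 had 18.4, 116 and 0 against 380.0, 259 and 123.3. ITPA, which removes noncanonical purine nucleotides, overlapped between the groups, at 115, 488 and 33.3 and 411, 468 and 638.

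Several genes of this rank were read in 1 group only. They reached the mean of 5 through that group alone and were named for their small p. The folds below therefore restate the values that chose these genes. SOBP and PILRA, a paired immunoglobulin-like receptor of myeloid cells, had no read in the 3 JPX-0700 libraries. Against a floor of 3 reads over that group, SOBP was at least 11.9-fold higher and PILRA at least 10.4-fold higher with JPX-0750. Most of their reads came from library 3 of JPX-0750, with levels of 13.7, 9.1 and 68.3 for SOBP and 24.0, 4.55 and 55.0 for PILRA. Without that library the bounds were 3.30 and 4.40, and without library 3 of JPX-0700 they were 6.84 and 5.96. ANGEL1 had 1 read with JPX-0700 and 97 with JPX-0750, at levels of 17.1, 40.9 and 138, a ratio of 73.7 (exact 95% counting interval 12.9 to 2941). The ratio was 23.1 (exact 95% counting interval 3.52 to 977) without library 3 of JPX-0750 and 42.3 without library 3 of JPX-0700, and without library 1 of JPX-0700 ANGEL1 was at least 18.3-fold higher. The fit with library number as a block put MIR191 (at least 3.8-fold), PRSS36 (at least 3.29-fold) and MEIS3P1 (at least 6.84-fold) beside them, all with 0 reads under JPX-0700. Without library 3 of JPX-0700 these bounds were 2.18, 1.89 and 3.93, and without library 3 of JPX-0750 that of MEIS3P1 was 2.75. MIR191 reads fall inside DALRD3 and NDUFAF3, and at most 17.1 normalised counts were read in any library. The at-least folds allow for counting error in the group with no read only and take the reads of the other group as exact. Neither they nor the counting intervals cover the spread between libraries, and the protocol names no molecular identifiers.

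In the other direction, RPL41 had the smallest p. It encodes a very short protein of the large ribosomal subunit. RPL41 (chr12:56116633-56117967) had 23158, 11277 and 35051 normalised counts with JPX-0700, 7131, 6162 and 8243 with JPX-0750 and 1949, 3692 and 5854 with DMSO. All 3 JPX-0750 libraries lay below all JPX-0700 libraries and above all DMSO libraries. The log2 difference was -1.55 (95% interval -2.54 to -0.57), with an unadjusted limma p of 0.00392 and an adjusted p of 0.999. Of the 80 tested cytosolic ribosomal protein genes, 0 lay above and 6 below (RPL24, RPL38, RPL39, RPL41, RPS6 and RPS10), and their median difference was -0.30. With libraries 1 and 2 alone, 11 lay above and 10 below. The median was -0.13 within library number 1, 0.07 within number 2 and -0.95 within number 3. In number 3, 72 of 80 were lower (90%, beside 43% of all genes).

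Other genes with a lower mean under JPX-0750 were of unlike kinds. FAM129A, which encodes the stress-induced protein Niban and is now named NIBAN1, had 295, 496 and 625 with JPX-0700 against 229, 132 and 13.3 with JPX-0750, a difference of -2.57 (95% interval -4.42 to -0.72). NEB, the gene of the muscle protein nebulin, had 272, 190.1 and 336 and 82.2, 68.2 and 1.67, while DMSO libraries had 0, 6.14 and 9.69. MCTP1, a membrane protein with calcium-binding C2 domains, had 318, 194 and 769.8 and 144, 95.5 and 33.3. FNDC3B, a membrane protein with fibronectin domains, had 589.9, 455 and 1564 and 383, 246 and 107. In FAM129A, NEB, MCTP1 and FNDC3B library 3 supplied both the highest JPX-0700 value and the lowest JPX-0750 value. All 3 libraries of each group were apart, so libraries 1 and 2 alone had to be apart too, which adds no support. KCNAB3, a potassium channel subunit, had 55.3, 101 and 342 and 54.8, 0 and 0, so that library 1 was nearly the same in the 2 groups.

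PLPP7 had 100 reads with JPX-0700 and 0 with JPX-0750, at least 43.9-fold lower. Most of these reads came from library 3, at 258 of the values 4.61, 22.4 and 258, and the bound was 5.35 without it and 20.2 without library 3 of JPX-0750. PLAT, the tissue plasminogen activator, had 13.8, 22.4 and 25.0 and no read with JPX-0750, at least 7.9-fold lower. For the antisense RNA TOLLIP-AS1 the levels were 23.0, 11.2 and 16.7 against 0, at least 6.14-fold lower. Without library 3 of JPX-0750 the bounds were 3.63 for PLAT and 2.83 for TOLLIP-AS1. PLPP7, PLAT and TOLLIP-AS1 reached the mean of 5 through JPX-0700 alone and were named for their small p. Their folds, too, restate the values that chose them.

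**Figure D2:**
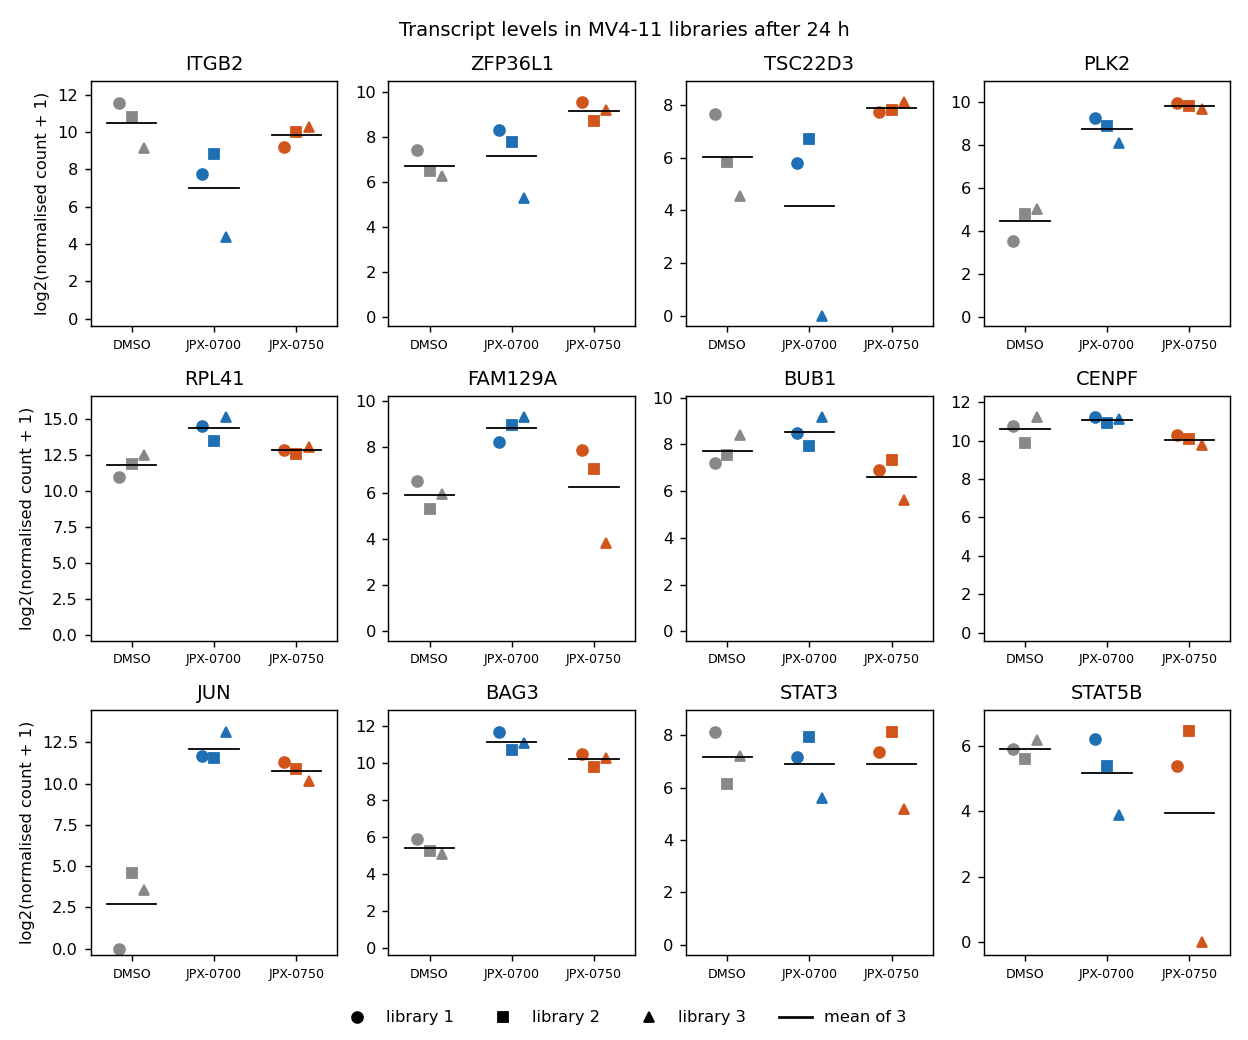
Each panel gives log2(normalised count + 1) of 1 gene in the 9 libraries, with symbols for library numbers 1 to 3, colours for DMSO, JPX-0700 and JPX-0750, and a line at the mean of the 3. ITGB2, ZFP36L1, TSC22D3 and PLK2 are higher and RPL41, FAM129A, BUB1, CENPF, JUN and BAG3 lower in every JPX-0750 library than in every JPX-0700 library, while STAT3 and STAT5B overlap.

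The groups overlapped for the transcripts of the named targets. STAT3 had 143, 242 and 47.2 normalised counts with JPX-0700 against 164, 282 and 34.98 with JPX-0750, a log2 difference of -0.0014 (95% interval -1.94 to 1.93). STAT5A had 23.0, 44.7 and 91.7 and 51.4, 45.5 and 3.33, a difference of -1.09 (95% interval -4.15 to 1.96). STAT5B had 73.7, 41.0 and 13.9 and 41.1, 86.4 and 0, a difference of -1.22 (95% interval -4.95 to 2.51). These intervals allow a several-fold difference in either direction, and protein levels were not measured. Of 6 tested STAT genes and 23 tested kinases and cytokine receptors, 0 had groups that did not overlap, and median differences were -0.26 and 0.39. In libraries 1 and 2 alone, the counts were 1 and 0 for the STAT genes and 2 and 2 for the others. FLT3, the receptor kinase, had 295, 227 and 511 and 236, 277 and 238, a difference of -0.38 (95% interval -1.61 to 0.85).

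Of 20 tested STAT5 targets, 1 lay above (PIM3, a kinase) and 2 below (IL2RA, the interleukin-2 receptor alpha chain, and OSM, the cytokine oncostatin M), with a median of 0.46, and in libraries 1 and 2 alone the counts were 5 and 4. PIM3 had 78.3, 198 and 86.1 and 239.6, 205 and 209.9. IL2RA had 23.0, 37.3 and 103 and 13.7, 0 and 3.33, a difference of -3.52 (95% interval -7.21 to 0.17). CCND2, which encodes the G1 cyclin D2, had 157, 853 and 839 and 151, 105 and 209.9, with overlap in library 1 and a difference of -1.69 (95% interval -3.16 to -0.21). PIM1 overlapped, at 69.1, 41.0 and 44.5 and 34.2, 54.6 and 409.8, and its difference was 0.86 (95% interval -1.41 to 3.14). The feedback inhibitors CISH and SOCS2 had differences of -1.30 (95% interval -4.37 to 1.77) and -0.23 (95% interval -3.89 to 3.44). Of 20 tested STAT3 targets, 0 lay above and 1 below (BIRC5), with a median of 0.31, and in libraries 1 and 2 alone the counts were 3 and 3. SOCS3, a feedback inhibitor, had 115, 59.6 and 47.2 and 130.1, 118 and 33.3, and MYC had 78.3, 37.3 and 8.34 and 71.9, 59.1 and 173.

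Genes of mitosis were the list with the most members below. Of 50 tested G2/M and mitosis genes, 0 lay above and 9 below (18% of the list, beside 3.62% of all genes): CCNB1, AURKA, BUB1, BUB1B, CDC20, CDC25C, CENPE, CENPF and BIRC5. With libraries 1 and 2 alone, 0 lay above and 35 below (70%, beside 15.7%). With all 3 libraries scaled to their totals, 7 lay below. The median difference of the list was -0.42. Within library number 1 it was -0.95 and 43 of 50 members were lower (86%, beside 46.9% of all genes). Within number 2 the median was -0.55 and again 43 were lower (beside 48.2%). Within number 3 the median was 0.70 and 24 were lower (48%, beside 43%). The median thus had the opposite sign in library number 3, and none of the members passed the test.

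BUB1, a kinase of the spindle checkpoint, had 359, 246 and 575 normalised counts with JPX-0700 against 119.8, 159 and 48.3 with JPX-0750, and 148, 186 and 336 with DMSO. The log2 difference was -1.92 (95% interval -3.38 to -0.45), with an unadjusted limma p of 0.0134. CENPF, a kinetochore protein, had 2364, 1908 and 2232 and 1256, 1082 and 876, a difference of -1.03 (95% interval -1.92 to -0.13). AURKA, the mitotic kinase aurora A, had 438, 216 and 317 and 68.5, 141 and 103, a difference of -1.63 (95% interval -3.05 to -0.20). CDC20, which activates the anaphase-promoting complex, had 175, 171 and 923 and 75.3, 91.0 and 113, with library 3 of JPX-0700 far above the rest. CCNB1, cyclin B1, had 350.2, 522 and 369.6 and 151, 159 and 317. CDK1, its kinase, overlapped, with 364, 231 and 119 and 116, 141 and 479.8: it was lower with JPX-0750 in libraries 1 and 2 and higher in library 3. JPX-0750 levels of AURKA and CDC20 lay below all DMSO libraries as well, at 411, 346 and 402 and 378, 342 and 236. So did JPX-0700 libraries 2 and 3 for AURKA and libraries 1 and 2 for CDC20.

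Because most of these genes lay on the same side in libraries 1 and 2, promoters are shown for BUB1, CENPF and CDC20, each 250 bases before to 50 after the start site, from RefSeq on GRCh38.p14. Mitotic promoters are known for CCAAT boxes, bound by NF-Y, and for a short element called the cell cycle genes homology region, for which TTTGAA and TTCGAA were searched. Both strands were read, so TTCAAA and ATTGG count as well, TTCGAA is its own complement, and no 2 of these motifs shared a base here. Capitals mark the matches. The windows are chr2:110678014-110678313 (minus strand), chr1:214602945-214603244 (plus strand) and chr1:43358731-43359030 (plus strand).
BUB1: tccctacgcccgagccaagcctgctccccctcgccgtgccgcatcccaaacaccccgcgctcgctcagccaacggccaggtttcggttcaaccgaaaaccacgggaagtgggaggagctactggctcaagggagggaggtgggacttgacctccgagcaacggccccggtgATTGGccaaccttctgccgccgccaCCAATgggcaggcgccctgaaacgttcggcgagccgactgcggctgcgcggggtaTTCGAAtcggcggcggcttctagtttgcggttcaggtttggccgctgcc
CENPF: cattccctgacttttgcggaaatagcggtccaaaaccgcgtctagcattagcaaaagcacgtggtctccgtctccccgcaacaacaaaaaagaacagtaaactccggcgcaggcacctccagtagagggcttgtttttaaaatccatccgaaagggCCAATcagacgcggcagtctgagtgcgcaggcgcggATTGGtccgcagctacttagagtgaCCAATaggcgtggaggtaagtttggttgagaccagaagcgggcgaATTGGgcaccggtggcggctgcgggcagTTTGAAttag
CDC20: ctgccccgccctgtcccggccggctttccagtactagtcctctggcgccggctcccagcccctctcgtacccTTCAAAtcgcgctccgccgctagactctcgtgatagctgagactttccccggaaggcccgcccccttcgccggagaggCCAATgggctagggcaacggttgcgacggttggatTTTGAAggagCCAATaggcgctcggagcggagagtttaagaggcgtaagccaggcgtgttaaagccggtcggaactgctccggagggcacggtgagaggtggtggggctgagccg

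In BUB1 the matches start 79 and 54 bases before the start site and at base 2 after it, in CENPF a TTTGAA starts at base 41, and in CDC20 a TTTGAA starts 65 bases before the start with a CCAAT at 55. Of 43 genes of the list with a promoter window, 33 (76.7%) had the homology element, in any of these spellings, in any of their windows, beside 19.5% of 27305 genes. CCAAT or ATTGG was in 34 (79.1%), beside 39.7%, and both kinds were in 26 (60.5%), beside 7.85%. The shares describe the list as it was written and use no value of these libraries. A match is a run of letters and not a measured site.

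Of 54 tested genes of the G1/S transition and DNA replication, 3 lay above (5.56%: MCM2, CCNE1 and E2F1) and 4 below (7.41%: MCM7, ORC6, RFC3 and DUT), and the median was 0.21. The counts were 6 and 9 in libraries 1 and 2 alone, shares of 11.1% and 16.7%. CCNE1, cyclin E1, had 13.8, 48.4 and 5.56 and 58.2, 63.7 and 85.0, and MCM2, a subunit of the replicative helicase, had 59.9, 44.7 and 47.2 and 61.6, 136 and 262. MCM7, another subunit of the same helicase, had 447, 447 and 756 and 305, 318 and 355. All 3 DMSO libraries had more MCM2 than any treated library, at 618, 569 and 341. For CCNE1 the DMSO libraries had 177, 91.3 and 85.1, the last of them level with library 3 of JPX-0750 at 85.0.

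Genes of cell cycle arrest and cell death are given singly, PLK2, TNFRSF10B and AEN chosen after their values were seen. PLK2, a polo-like kinase, had 604, 469.6 and 272 normalised counts with JPX-0700 against 1009.9, 891 and 819.6 with JPX-0750, beside 10.8, 26.8 and 32.3 with DMSO. The log2 difference was 1.08 (95% interval 0.036 to 2.13). TNFRSF10B, the death receptor DR5, had 147, 89.4 and 41.7 and 284, 182 and 406, a difference of 1.74 (95% interval 0.17 to 3.30). AEN, an exonuclease of apoptosis, had 36.9, 96.9 and 33.3 and 106, 218 and 262, a difference of 1.87 (95% interval 0.04 to 3.69). CDKN1A, which encodes the cell cycle inhibitor p21, had 235, 272 and 561 and 705, 559 and 709.7, where only the lowest JPX-0750 and the highest JPX-0700 libraries touched, and its difference was 0.99 (95% interval -0.14 to 2.11). MDM2, which encodes a ubiquitin ligase, overlapped: its levels were 3069, 2009 and 3885 and 3622, 2829 and 1638, a difference of -0.17 (95% interval -1.12 to 0.78), and GADD45A and BBC3 had differences of 0.13 (95% interval -1.02 to 1.29) and 0.087 (95% interval -1.21 to 1.39). In MDM2, GADD45A and BBC3 libraries 1 and 2 were higher and library 3 lower with JPX-0750 than with JPX-0700.

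**Figure D3:**
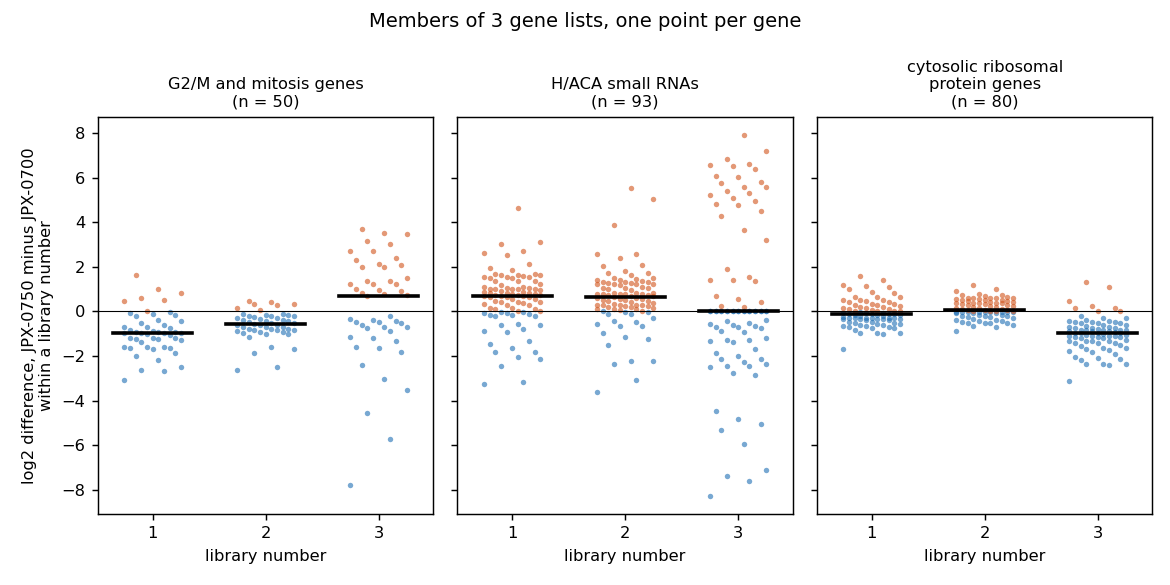
Each point is 1 gene, and the y axis is the log2 difference between the JPX-0750 and the JPX-0700 library of the same number, 1 to 3 on the x axis, with a bar at the median. The G2/M genes have negative medians in numbers 1 and 2 and 0.70 in number 3, the H/ACA and Cajal body RNAs have 0.72, 0.66 and 0, and the ribosomal protein genes stand at -0.95 in number 3.

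Among immediate early genes, JUN had the smallest p. It encodes the AP-1 subunit c-Jun. JUN (chr1:58780791-58784047) had 3249, 2967 and 8951 normalised counts with JPX-0700, 2492, 1887 and 1128 with JPX-0750 and 0, 23.0 and 10.8 with DMSO. Both compounds stood far above DMSO and the JPX-0750 libraries all lay below the JPX-0700 libraries. The difference was -1.34 (95% interval -2.38 to -0.30), with an unadjusted limma p of 0.0143. FOS and EGR1, immediate early transcription factors, had differences of 0.35 (95% interval -0.76 to 1.45) and 0.40 (95% interval -0.65 to 1.44), and JUNB had -0.42 (95% interval -1.68 to 0.84). Of 30 tested immediate early and feedback genes, 2 lay above (KLF2 and BTG2) and 1 below (JUN), and the median was 0.29. The counts in libraries 1 and 2 alone were 7 and 2.

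The JUN promoter window is shown because JUN had the smallest p of the immediate early genes; it lies at chr1:58783998-58784297 on the minus strand of GRCh38.p14, from RefSeq. Capitals mark GAANNTTC, the inverted repeat that heat shock factors recognise, and TGACATCA, the AP-1-like site through which c-Jun is known to act on its own gene.
JUN: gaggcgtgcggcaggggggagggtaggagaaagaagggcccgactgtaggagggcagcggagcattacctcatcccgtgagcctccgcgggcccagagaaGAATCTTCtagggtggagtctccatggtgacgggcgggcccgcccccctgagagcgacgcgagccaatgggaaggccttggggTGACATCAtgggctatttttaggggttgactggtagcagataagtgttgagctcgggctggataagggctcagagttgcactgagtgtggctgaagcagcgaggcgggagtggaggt

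The first match starts 150 and the second 67 bases before the start site. Of all 35116 promoter windows, 13.5% held GAANNTTC or TTCNNGAA and 2.61% held TGACATCA or TGATGTCA.

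Heat shock genes encode the chaperones that refold damaged proteins. Of 27 tested members 0 lay above and 2 below, DNAJB1 and BAG3, with a median of -0.40. BAG3, a co-chaperone of HSP70, had 3272, 1666 and 2148 normalised counts with JPX-0700, 1428, 891 and 1246 with JPX-0750 and 57.5, 36.4 and 32.8 with DMSO, a difference of -0.96 (95% interval -1.90 to -0.025). DNAJB1, an HSP40 co-chaperone, had 16549, 16133 and 22693 and 14268, 12824 and 8428, a difference of -0.66 (95% interval -1.56 to 0.25). HSPH1 and HSPA8 had differences of -0.41 (95% interval -1.36 to 0.54) and -0.41 (95% interval -1.28 to 0.47). HSP90AA1, the inducible HSP90, had 55773, 52451 and 99308 and 66032, 58499 and 64304, and its difference was -0.075 (95% interval -1.11 to 0.96). For the small heat shock gene HSPB1 the difference was -1.12 (95% interval -2.42 to 0.18), with levels of 8411, 3037 and 22181 and 2999, 2237 and 8203. Within library numbers 1, 2 and 3, 15, 10 and 4 of the 27 members were higher with JPX-0750. These are 55.6%, 37% and 14.8%, beside 52%, 50.7% and 44.9% of all genes. With libraries 1 and 2 alone 4 lay above and 5 below. HSPA1A was listed at 0 in all 9 libraries and has a near-identical copy, so it says nothing about that gene.

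The amino acid response driven by the transcription factor ATF4 adjusts amino acid synthesis and tRNA charging. DDIT3, which encodes CHOP, had 479, 611 and 411 with JPX-0700, 561, 623 and 297 with JPX-0750 and 0, 10.4 and 16.7 with DMSO, and its difference was -0.072 (95% interval -1.18 to 1.03). ATF4 itself had a difference of -0.37 (95% interval -1.33 to 0.60) and ASNS, asparagine synthetase, of 0.15 (95% interval -1.07 to 1.37). Of 42 tested members, 3 lay above (CHAC1, SHMT2 and MARS, a tRNA synthetase now named MARS1) and 1 below (ATF5), with a median of -0.03, shares near those of all genes. Without library 3, 6 lay above and 6 below. CHAC1, which degrades glutathione, had 55.3, 55.9 and 0 and 78.7, 132 and 102. ATF5 had 853, 973 and 1195 and 650.4, 705 and 247, a difference of -1.04 (95% interval -2.13 to 0.051). The ER chaperone HSPA5 had a difference of -0.23 (95% interval -1.18 to 0.71), and of 25 tested ER stress genes none separated the groups, while libraries 1 and 2 alone gave 2 and 4. Of 31 tested NRF2 and haem genes, 0 lay above and 1 below (TXNRD1, a thioredoxin reductase), with a median of -0.10, and libraries 1 and 2 alone gave 2 and 8. HMOX1, haem oxygenase, had 253, 626 and 83.4 and 161, 127 and 56.6, with DMSO near 0, and a difference of -1.16 (95% interval -2.87 to 0.54).

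Of 32 tested sterol and fatty acid genes, 3 lay above (INSIG1, DHCR7 and FADS2) and 1 below (ELOVL5), and the median of 0.91 was the highest of the lists, with 0.53, 0.23 and 1.91 in library numbers 1, 2 and 3. Without library 3, 7 lay above and 2 below. DHCR7, the last enzyme of cholesterol synthesis, had 9.22, 11.2 and 11.1 and 24.0, 31.8 and 28.3. FASN, fatty acid synthase, had 83.0, 268 and 195 and 202, 323 and 1193, a difference of 1.38 (95% interval -0.13 to 2.90), and SQLE, squalene epoxidase, had -0.99 (95% interval -2.33 to 0.36). Of 58 tested oxidative phosphorylation genes, 0 lay above and 5 below (NDUFB9, NDUFS1, NDUFS8, NDUFB11 and NDUFS7, all subunits of complex I), with a median of -0.32. The median was -0.19, 0.18 and -0.95 in library numbers 1, 2 and 3, and in libraries 1 and 2 alone 10 lay above and 8 below. Of 33 tested glycolysis and hypoxia genes, 0 lay above and 1 below (GAPDH, the glycolytic dehydrogenase), with a median of 0.26, and libraries 1 and 2 alone gave 7 and 4. NDUFS1 had 309, 268 and 219.5 and 161, 150.1 and 3.33, where library 3 of JPX-0750 was the lowest.

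Structured noncoding RNAs, meaning small nuclear, nucleolar, Cajal body, Y, vault, 7SK, signal recognition particle and RNase RNAs, took 9.02%, 8.60% and 10.3% of reads with JPX-0700 against 11.7%, 11.6% and 13.7% with JPX-0750. The DMSO libraries had 0.136% ± 0.114 (SD, n = 3). These RNAs mostly lack a poly(A) tail, work in splicing, RNA modification and transcription control, and are read here by a kit that primes on poly(A). Group means were 9.31% ± 0.896 and 12.3% ± 1.19 (SD, n = 3 each), a difference of 2.99 percentage points, and the groups did not overlap. The exact two-sided permutation test gave p = 0.1, the smallest 3 against 3 libraries allow, and 0.4 after adjustment over 4 read classes. Within library numbers the difference was 2.65, 2.97 and 3.36 points. Protein-coding genes took 81.6% ± 1.34 and 78.8% ± 2.12 (exact permutation p = 0.2, adjusted 0.4, n = 3 each). MALAT1, a nuclear long noncoding RNA, took 6.03% ± 2.18 and 6.15% ± 2.72 (exact permutation p = 1, n = 3 each), and cytosolic ribosomal protein genes 18.4% ± 3.86 and 16.6% ± 1.01 (exact permutation p = 0.6, adjusted 0.8, n = 3 each).

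Most of the 2.99 points lay in 1 class. The 7SK, Y, vault, signal recognition particle and RNase RNAs took 4.11% ± 1.16 with JPX-0700 and 6.80% ± 1.77 with JPX-0750 (SD, n = 3 each), a difference of 2.69 points, with 2.63, 1.98 and 3.45 within library numbers. C/D box RNAs, which guide methylation of ribosomal RNA, took 3.56% and 3.72%. H/ACA RNAs, which guide pseudouridylation, and Cajal body RNAs together took 0.622% and 0.815%, and spliceosomal RNAs 0.943% and 0.794%. Different RNAs carried the first class in different libraries. RN7SL1, the RNA of the signal recognition particle, had 9047, 45259 and 26025 and 78360, 65475 and 6021 normalised counts, so it was higher with JPX-0750 in libraries 1 and 2 and lower in library 3. RNY5, a Y RNA, had 25024, 7815 and 103170 and 20170, 24270 and 189870, and library 3 of each compound held the highest values. RNY3 had 521, 1632 and 2821 and 3803, 3429 and 2885, and its groups did not overlap. Of 14 tested RNAs of this class, 1 lay above (RNY3) and 1 below. Libraries 1 and 2 alone gave 10 (71.4%, beside 17.6% of all genes) and 1 (7.14%, beside 15.7%). RN7SK, the RNA that holds the elongation kinase P-TEFb inactive, went the other way, at 49293, 26692 and 76876 against 24685, 25575 and 25971, a difference of -0.87 (95% interval -1.90 to 0.15). LARP7, the protein that stabilises 7SK, also lay below, at 1806, 1375 and 2623 against 1332, 1114 and 795, and HEXIM1, the inhibitor in that complex, had 0.16 (95% interval -0.78 to 1.11). Of 11 tested genes of this complex and its kinase, 0 lay above and 2 below, with a median of -0.02, and libraries 1 and 2 alone gave 4 and 3.

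**Figure D4:**
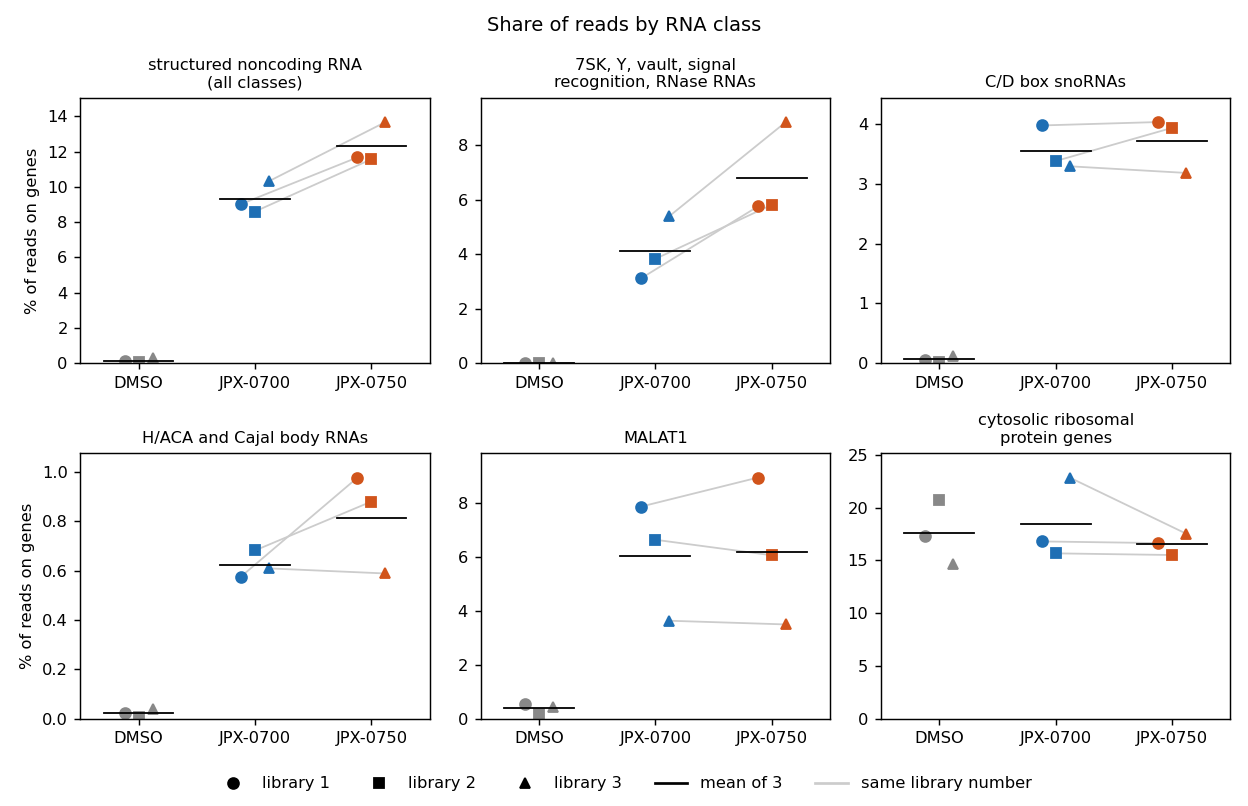
Each panel gives the percent of reads on genes taken by 1 RNA class in the 9 libraries, with a line at the mean of the 3 and grey lines joining the JPX-0700 and JPX-0750 libraries of the same number. All structured noncoding RNA together is higher in each JPX-0750 library (11.6% to 13.7%) than in any JPX-0700 library (8.60% to 10.3%), whereas C/D box RNAs, MALAT1 and ribosomal protein genes overlap.

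Within the small RNAs, single species separated the compounds in both directions, and 4 of those whose 95% interval left 0 out are shown, chosen after their values were seen. Sequences are GENCODE 29 transcripts on GRCh38, written as DNA. Capitals mark ATTTTTG, the Sm protein site, in the spliceosomal RNAs, the C box TGATGA and D box CTGA in SNORD89, and the ACA box in SNORA79. RNU4ATAC (chr2:121530881-121531007, plus strand) and SNORD89 (chr2:101272936-101273049, minus strand) were lower with JPX-0750. RNU4-1 (chr12:120293097-120293237, minus strand) and SNORA79 (chr14:81202695-81202834, minus strand) were higher.
RNU4ATAC: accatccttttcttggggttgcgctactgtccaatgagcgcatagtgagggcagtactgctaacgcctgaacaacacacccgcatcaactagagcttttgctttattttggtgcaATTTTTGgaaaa
SNORD89: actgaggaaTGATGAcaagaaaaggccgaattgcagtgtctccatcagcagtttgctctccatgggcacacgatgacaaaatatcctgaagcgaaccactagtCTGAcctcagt
RNU4-1: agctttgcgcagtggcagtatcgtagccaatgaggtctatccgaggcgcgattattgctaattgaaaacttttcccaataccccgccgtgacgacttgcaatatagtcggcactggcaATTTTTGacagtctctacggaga
SNORA79: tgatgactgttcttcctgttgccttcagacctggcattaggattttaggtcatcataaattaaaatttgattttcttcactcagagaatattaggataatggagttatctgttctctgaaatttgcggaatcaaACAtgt

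The Sm site starts at base 116 of RNU4ATAC and base 119 of RNU4-1, and 5.65% of 1806 GENCODE small nuclear RNA transcripts named RNU, many of them pseudogene copies, held these letters. A TGATGA followed by a CTGA was in 76.4% of 288 SNORD transcripts, and an ACA exactly 3 bases before the end in 75.2% of 149 SNORA transcripts. RNU4ATAC and RNU4-1 do the same work, that of U4, in the minor and the major spliceosome, and they stood on opposite sides.

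RNU4ATAC had 28407, 12720 and 20014 normalised counts with JPX-0700, 7093, 7631 and 8209.9 with JPX-0750 and 510.1, 259 and 1981 with DMSO. The JPX-0750 libraries lay close together and all below the JPX-0700 libraries, and the log2 difference was -1.34 (95% interval -2.26 to -0.42), with an unadjusted limma p of 0.00667. The other minor spliceosome RNAs did not follow. RNU6ATAC had 1654, 1301 and 1651 and 2191, 1924 and 1879, all above, with a difference of 0.39 (95% interval -0.49 to 1.26). RNU12 had 1097, 827 and 3012 and 3156, 3083 and 2724, overlapping through library 3, with 1.09 (95% interval 0.066 to 2.12), and RNU11 had 1148, 1148 and 2209 and 3194, 2879 and 2161, with 0.92 (95% interval -0.0036 to 1.85). In the major spliceosome RNU4-1 had 1581, 1532 and 2793 and 3872, 3383 and 3658, a difference of 0.94 (95% interval 0.053 to 1.83). Its near-identical copy RNU4-2 had 3000.2, 2165 and 6378 and 6631, 5775 and 6772, and reads could be split between them. Of 19 tested spliceosomal RNAs, 4 lay above (21.1%, beside 4.63% of all genes) and 1 below (5.26%, beside 3.62%), and the median was 0.39. In libraries 1 and 2 alone, 8 lay above (42.1%, beside 17.6%) and 1 below (5.26%, beside 15.7%). RNU4ATAC lies inside CLASP1, RNU4-1 inside SIRT4, SNORD89 inside RNF149 and SNORA79 inside GTF2A1, and reads of a small RNA and of the transcript around it were not told apart here.

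Of 93 tested H/ACA and Cajal body RNAs, 14 lay above (15.1%, beside 4.63% of all genes) and 1 below (SNORA26), with a median of 0.51. Libraries 1 and 2 alone had 54 above (58.1%) and 8 below. Within library numbers 1 and 2 the medians were 0.72 and 0.66, with 68 and 73 members higher (73.1% and 78.5%, beside 52% and 50.7% of all genes). In number 3 the median was 0, with 34 higher and 37 lower (36.6% and 39.8%, beside 44.9% and 43%). The other members had a difference of 0 in number 3. SNORA79 had 59.9, 29.8 and 0 and 267, 182 and 238, a difference of 4.20 (95% interval 1.31 to 7.10), and DMSO had 0, 0 and 3.23. SNORA63, within EIF4A2, had 641, 298 and 717 and 873, 782 and 2096, a difference of 1.13 (95% interval 0.00046 to 2.25). SNORA12, a highly read member, overlapped, with 295, 760.3 and 2879 and 2386, 1709.9 and 1982.

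Of 153 tested C/D box RNAs, 13 lay above (8.5%, beside 4.63% of all genes) and 3 below (1.96%, beside 3.62%), with a median of 0.24. The 3 below were SNORD58A, SNORD50A and SNORD89. In libraries 1 and 2 alone, the counts were 46 (30.1%, beside 17.6%) and 19 (12.4%, beside 15.7%). SNORD89 had 1267, 462 and 692 and 301, 364 and 108, a difference of -1.69 (95% interval -2.97 to -0.42). SNORD50A had 41666, 11371 and 21681 and 9007, 10632 and 9123, a difference of -1.19 (95% interval -2.21 to -0.16), and it lies inside the host gene SNHG5. SNORD71 stood on the other side, at 986, 1804 and 1089 and 3119, 2751 and 1949, with 1.04 (95% interval 0.11 to 1.96). SNORD46 and SNORD3A, the most abundant members, overlapped, with differences of 0.60 (95% interval -0.50 to 1.70) and -0.12 (95% interval -1.23 to 0.98). In RNU4ATAC, SNORD50A and SNORD58A library 1 of JPX-0700 held the highest value.

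Of 23 tested monocyte and macrophage genes, 1 lay above (SIRPA) and 1 below (CD36), with a median of 0.36, shares near those of all genes, and libraries 1 and 2 alone gave 2 and 4. SIRPA, the receptor for the signal CD47, had 92.2, 59.6 and 2.78 and 119.8, 177 and 165, with DMSO at 167, 193 and 134. CD36, a scavenger receptor, had 258, 373 and 497 and 178, 246 and 31.7, a difference of -1.69 (95% interval -3.30 to -0.077). LYZ and CD33 had differences of -0.38 (95% interval -1.46 to 0.70) and 0.12 (95% interval -1.38 to 1.62). Of the HOXA and MLL fusion genes, MEIS1, HOXA10 and PBX3 had differences of 0.35 (95% interval -0.94 to 1.63), -0.88 (95% interval -2.62 to 0.86) and 0.25 (95% interval -1.01 to 1.52). HOXA11 had 59.9, 11.2 and 256 and 10.3, 0 and 1.67, a difference of -4.21 (95% interval -8.04 to -0.38), and MEF2C had 562, 540.4 and 792 and 414, 446 and 342, and these 2 of 17 tested lay below and 0 above. Libraries 1 and 2 alone put 7 of this list below (41.2%, beside 15.7% of all genes) and 0 above, and its median was -0.68, -0.02 and 0.24 in library numbers 1, 2 and 3. CTSG, a granule protease, had 267, 205 and 703 and 185, 141 and 129.9, a difference of -1.16 (95% interval -2.54 to 0.22), and was the 1 of 11 tested granule and progenitor genes that lay below, with 0 above; libraries 1 and 2 alone gave 1 and 3.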

How the data were processed

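Gene expression was read by QuantSeq 3′ sequencing of total RNA, single reads, per the labels. The authors deposited 1 table of normalised counts of 26929 genes in 9 columns with a decimal comma; per the submitters' processing notes the tools were FastQC 0.11.9, STAR 2.4.2a, SAMtools 1.4, featureCounts 2.0.3 and DESeq2, on GRCh38. The sources used here do not give the strand, the annotation or the treatment of reads with several positions. Every value above 0 was a whole multiple of its library's smallest value (tolerance 1e-06), so whole reads were recovered: 726043 to 1941860 per treated library, 1 read being worth 1.67 to 4.61 normalised counts.

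limma 3.58.1 in R 4.3.3 fitted log2(normalised count + 1) of the 6 treated libraries, with a trend on level and 4 residual degrees of freedom, for genes with a mean of at least 5. Of 14286 genes left out, 9337 had no value in these libraries. Adding 1 shrinks differences of weakly read genes. For a fold against a group with no read, a floor of 3 reads over the group was used; ratios with 1 to 3 reads carry an exact 95% counting interval. The code was tested on simulated data. For read shares the test was an exact permutation test over libraries, two-sided. Symbols, positions and RNA classes came from RefSeq (GRCh38.p14), 24159 by current symbol. Deviations of libraries with the same number from their group means correlated at 0.134, 0.171 and 0.192, and the numbers were taken as pairs. Between the compounds, libraries 1 and 2 of unlike number gave 0.0598 and 0.15, so the values do not clearly pair these libraries. With library 3 on 1 side, unlike numbers gave -0.197 to -0.119. A fit with the number as a block was an alternative. The labels give no reason for the pairing.

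The 41 gene lists were chosen with earlier results of these data known. Named genes were the 10 with the smallest p in each direction, the 5 in each direction with the block, the 5 with the narrowest intervals and the first 4 members written of each list (for lists given by a name pattern, the 4 most read). Members named because their libraries did not overlap, and a few others, were chosen after their values were seen. Some named genes, 1 list and 1 sequence are not reported here. Alternatives were another pseudocount, filter, scaling or fit, the block, all 9 libraries and leaving out libraries.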

Additional observations from a re-analysis of the deposited data

How the results depend on the processing

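The count of genes past the threshold was 0 in either direction under all 18 alternatives, with a smallest adjusted p of 0.129 (limma without library 2 of JPX-0700). The library number as a block changed no call. The edgeR and DESeq2 fits planned for these data were not run. The 36 genes with an interval within 2-fold became 22 with a pseudocount of 5, 57 with no filter on low values, 77 with a mean of at least 50, 161 with total-sum scaling, 156 with quantile normalization, 59 with voom, 68 with all 9 libraries in the fit, 113 with the replicate block, 202 with the replicate block and a mean of at least 50, and 1427 with libraries 1 and 2 only. Leaving out 1 library gave 0 to 615, with 615 without library 3 of JPX-0700 and 0 without library 1 or 2 of either compound; the cause was not tested. Of 263 named genes tested, 87 had the opposite sign under at least 1 alternative, 176 had none, and 0 were called. Leaving out 1 library in turn, the structured RNA share differed by 2.30 to 3.49 points and the protein-coding share by -3.52 to -1.55, while MALAT1 (-1.27 to 1.45) and ribosomal protein genes (-3.26 to 0.328) took both signs. Counts of list members on libraries 1 and 2 only, and under total-sum and TMM scaling, were added after seeing the data. Folds from few reads without each library were added then too. At this depth 8084 tested genes were above 0 in all 6 libraries, 3581 had a JPX-0700 library at 0 and 2964 a JPX-0750 library at 0.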

Other observations

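The members of the lists described here passed no test between the compounds. Of 31 tested type I interferon genes, 0 lay above and 1 below: IFIT3, an interferon-induced antiviral protein, had 18 reads with JPX-0700 and 1 with JPX-0750, a ratio of 0.0422 (exact 95% counting interval 0.00101 to 0.267). Without library 2 of JPX-0700 the ratio was 0.0741, and without library 3 of JPX-0750 IFIT3 was at least 3.63-fold lower. IFIT3 reached the mean of 5 through JPX-0700 and was named because its libraries did not overlap. Its folds therefore restate the values that chose it, and the counting interval does not cover the spread between libraries. With libraries 1 and 2 alone, 1 interferon gene lay above and 12 below (38.7%, beside 15.7% of all genes), and the median of the list was -0.19, -0.47 and 0 in library numbers 1, 2 and 3. Of 11 tested antigen presentation genes, 1 lay below: HLA-DQA1, an MHC class II chain, with 13.8, 29.8 and 66.7 normalised counts and 10.3, 0 and 0. Libraries 1 and 2 alone gave 0 above and 2 below. CD74, the class II invariant chain, overlapped, with a log2 difference of -0.56 (95% interval -1.78 to 0.66). Of 38 tested lysosome and autophagy genes, 3 lay above (CTSC, LIPA and ATP6V1H) and 1 below (CTSZ), against 7 and 5 in libraries 1 and 2 alone. LIPA, the lysosomal acid lipase, had 13.8, 7.45 and 11.1 and 37.7, 27.3 and 81.6, while DMSO had 55.7, 106 and 42.0. SOD2, the mitochondrial superoxide dismutase and an NF-kB target, had 27.7, 37.3 and 25.0 and 75.3, 68.2 and 208, and was the 1 of 21 tested NF-kB targets that lay above, with 0 below, against 3 and 2 in libraries 1 and 2 alone. CXCL8, an inflammatory chemokine, overlapped, with a difference of -0.88 (95% interval -2.82 to 1.06).

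The zinc finger genes named ZNF formed the largest list. Of 398 tested, 26 lay above and 7 below, with a median difference of 0.30, and within library numbers 1, 2 and 3 the medians were 0.23, 0.02 and 0. Libraries 1 and 2 alone had 92 above (23.1%, beside 17.6%) and 49 below (12.3%, beside 15.7%). The most read members overlapped, among them ZNF638 and ZNF207, with differences of -0.49 (95% interval -1.45 to 0.46) and -0.099 (95% interval -1.13 to 0.93). Of 58 tested replication-dependent histone genes, whose mRNAs normally end without a poly(A) tail, 2 lay above and 0 below, and the median was -0.05. Without library 3, 19 histone genes lay above (32.8%, beside 17.6%) and 1 below, and the median was 0.22, 0.35 and -0.14 in library numbers 1, 2 and 3. HIST1H4C, a histone H4 gene, had 4000.2, 3559 and 9476 and 3546, 3592 and 2987. The metallothioneins MT2A and MT1E, zinc-binding proteins, had differences of -1.01 (95% interval -2.27 to 0.26) and -0.49 (95% interval -2.28 to 1.30), and of 9 tested genes of that list none separated the groups, against 0 above and 1 below in libraries 1 and 2 alone. PABPC1, the cytoplasmic poly(A)-binding protein, belonged to no list and was noticed after its values were seen: it had 84903, 43798 and 59953 and 41076, 36880 and 28338, all below, with a difference of -0.79 (95% interval -1.80 to 0.22). NEAT1, a nuclear long noncoding RNA that builds paraspeckles, had 9991, 9179 and 21501 and 10451, 7230.5 and 7424, a difference of -0.60 (95% interval -1.55 to 0.34). Of 11 tested nuclear long noncoding RNAs none separated the groups, and libraries 1 and 2 alone gave 2 above and 0 below.

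Of 23 tested noncoding host genes of small nucleolar RNAs, 1 lay above (DANCR) and 0 below, with a median of 0.20. Without library 3, 10 lay above (43.5%, beside 17.6%) and 0 below, and the median was 0.32, 0.57 and -0.70 in library numbers 1, 2 and 3. Of 29 tested BCL2 family and cell death genes, 1 lay above (RIPK3, a kinase of necroptosis) and 1 below (BIRC5, survivin), with a median of 0.29, and libraries 1 and 2 alone gave 6 and 5. Of 44 tested ribosome biogenesis genes, 2 lay above (POLR1C and POLR1E, subunits of RNA polymerase I) and 2 below (NOP56 and NOP14), with a median of 0.08, and libraries 1 and 2 alone gave 4 and 8. Of 72 tested mitochondrial ribosomal proteins, 1 lay above (MRPS17) and 2 below (MRPL15 and MRPL1), with a median of -0.19, and libraries 1 and 2 alone gave 4 and 13. Of 43 tested proteasome subunits, 0 lay above and 1 below (PSMC6, an ATPase of the regulatory particle), with a median of -0.12, and libraries 1 and 2 alone gave 4 and 7. Markers of other cells were tested for 8 genes of T and NK cells, 2 of B and plasma cells, 2 of erythroid cells and megakaryocytes and 4 of epithelium and fibroblasts, and none separated the groups with all 3 libraries. With libraries 1 and 2 alone, 1 of the erythroid and 1 of the epithelial list lay below.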
